A study of Mus musculus with 2 samples.

Results

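Mir320, Mir484, Mir877 and Mir1224 are mouse miRNA genes whose precursor hairpins are known to be made without the Microprocessor. The choice was made by symbol, with earlier results of these data known. These are 4 of the 1973 miRNA genes listed in the counts. The RNA came from midbrain of Mus musculus embryos of strain B6NCrl at embryonic day 16.5. There were 2 libraries, replicate 1 and replicate 2, and they are biological replicates of 1 group. Each was made from pooled male and female embryos, 37 of them for replicate 2 and a number not given for replicate 1, so the spread between the libraries is one between pools and not between single animals. No treatment, mutation or second tissue was compared, and the questions were how abundant these genes were and how far the libraries differed.

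Most miRNAs are cut out of long transcripts in the nucleus by the Microprocessor, a complex of the nuclease Drosha and its RNA-binding partner DGCR8, and are then trimmed by Dicer in the cytoplasm. Hairpins of the mir-320 kind skip the first cut, since transcription itself starts at the base of the hairpin and the precursor keeps the cap of a nascent transcript at its 5′ end. Mirtrons skip it in another way. Their hairpin is a whole short intron, which the spliceosome releases and which is debranched and folded before Dicer cuts it. Read counts do not show which enzyme made a precursor, so the description of these 4 genes was set only against the annotation.

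Sense reads of miRNA genes, the reads counted here, came to 6151299 for replicate 1 and 5312642 for replicate 2. Values are shares of these reads scaled as CPM, with 1 read worth 0.163 CPM in replicate 1 and 0.188 CPM in replicate 2. A further 35.3% of all reads in replicate 1 and 36.5% in replicate 2 had mapped to several places and belong to no gene in these values. Of 8 miRNA genes fixed as neural markers all 8 had 10 or more reads in both libraries, with means from 5.04 CPM for Mir124a-1 to 25498 CPM for Mir149. Because multi-mapped reads are left out, a low value such as that of Mir124a-1 need not be the level of its mature miRNA. Of 10 markers of endothelial, erythroid, liver, muscle and epithelial cells 9 did, and the muscle gene Mir133b, at 0.676 CPM, did not. Bulk counts cannot tell fewer cells of a type from less RNA per cell.

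Mature sequences are shown here because their seeds, bases 2 to 8 counted from the 5′ end, select targets. They come from RefSeq on GRCm38.p6, where 3 of the 4 genes matched an entry, and capitals mark the seed.
miR-484: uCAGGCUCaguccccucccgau
miR-877-5p: gUAGAGGAgauggcgcaggg
miR-877-3p: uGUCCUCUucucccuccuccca
miR-1224-5p: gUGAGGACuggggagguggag
miR-1224-3p: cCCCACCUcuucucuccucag

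These 5 mature miRNAs carried 5 different seeds, and no other entry among the 1738 mature miRNAs of the table shared a seed with any of them. They are rich in G and C, from 59.1% for miR-877-3p to 66.7% for miR-1224-5p, against a median of 52.2% over all mature entries. The counts are per hairpin and do not separate the 5p from the 3p arm, nor mature miRNAs from other pieces of the hairpin.

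The complete hairpins of the mirtrons are shown because their ends are the ends of introns. Capitals mark the first and the last pair of bases, which are the splice donor and acceptor dinucleotides.
Mir877: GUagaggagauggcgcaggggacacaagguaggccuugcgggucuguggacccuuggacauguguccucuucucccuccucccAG
Mir1224: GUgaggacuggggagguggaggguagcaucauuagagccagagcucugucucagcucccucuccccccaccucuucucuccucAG

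Mir877 (ENSMUSG00000077931.1) lies on the minus strand of chromosome 17 from 35960730 to 35960814 (mm10, GENCODE M21). Its 85 bases are exactly intron 12 of 22 of the Abcf1 transcript ENSMUST00000043757.14. Abcf1 encodes an ATP-binding protein that works in translation initiation. Mir1224 (ENSMUSG00000080669.1) lies on the plus strand of chromosome 16 from 20604452 to 20604536. Its 85 bases are exactly the last intron, number 22, of the Vwa5b2 transcript ENSMUST00000096197.10, which encodes a protein with a von Willebrand factor A domain. Both hairpins thus met the definition of a mirtron with 0 bases of offset at either end. In each, the 5p arm starts at base 1 of the intron. The 3p arm of Mir1224 runs to the last base, and that of Mir877 stops 1 base short of it.

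Of the 20 bases before the final dinucleotide 19 were pyrimidines in both Mir877 and Mir1224, against 8 in Mir484, which is no intron. The median over 853 hairpins that do not fill an intron was 11. Predicted folding energies were -36.5 kcal/mol for Mir877, -42.8 kcal/mol for Mir1224 and -24.6 kcal/mol for the shorter hairpin of Mir484, of 67 bases. The longest run of bases shared with another hairpin of the table, on either strand, was 12 for Mir877, 12 for Mir1224 and 13 for Mir484, shorter than any of their mature miRNAs. A read of a whole mature miRNA from these genes had no second exact place among the other hairpins of that table. Other parts of the genome were not searched.

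Neither capped hairpin lies in a gene of its own strand. Mir320 (ENSMUSG00000065528.1, 82 bases) lies on the plus strand of chromosome 14 from 70443510 to 70443591. There are 62 bases between it and the 5′ end of Polr3d, a gene on the other strand that encodes a subunit of RNA polymerase III. Mir484 (ENSMUSG00000070074.1) lies on the plus strand of chromosome 16 from 14159626 to 14159692. It lies 3582 bases upstream of Nde1, a gene of its strand whose product acts with dynein in dividing neural progenitors. It lies within the span of Marf1, a gene on the opposite strand, and overlaps an exon of it by 19 bases. Start sites of transcription were not measured here.

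Mir484 had the most reads of the 4, followed by Mir320, Mir877 and Mir1224, and the order was the same in both libraries. Levels here are shares of reads, and whether different genes gave equal reads per molecule was not tested. All 4 had 10 or more reads in both libraries, where 20.8% of all listed genes did. Because earlier results were known when the genes were chosen, this is a description and not a test. Mir484 had 17436 reads in replicate 1 and 13754 in replicate 2, that is 2835 CPM (95% exact Poisson interval 2793 to 2877) and 2589 CPM (2546 to 2633). Mir320 had 4486 and 4018 reads, or 729 CPM (708 to 751) and 756 CPM (733 to 780). Replicate 1 was the higher library for Mir484, with intervals that did not overlap, while those of Mir320 did. Intervals cover counting error only, since reads without molecular identifiers are not independent molecules.

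The mirtrons were lower than either capped hairpin in both libraries. Mir877 had 561 and 455 reads in replicates 1 and 2, or 91.2 CPM (83.8 to 99.1) and 85.6 CPM (77.96 to 93.9). Mir1224 had 242 and 332 reads, or 39.3 CPM (34.5 to 44.6) and 62.5 CPM (55.95 to 69.6). Replicate 2 was the higher library for Mir1224, and the intervals of the libraries overlapped for Mir877 and not for Mir1224.

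**Figure D1:**
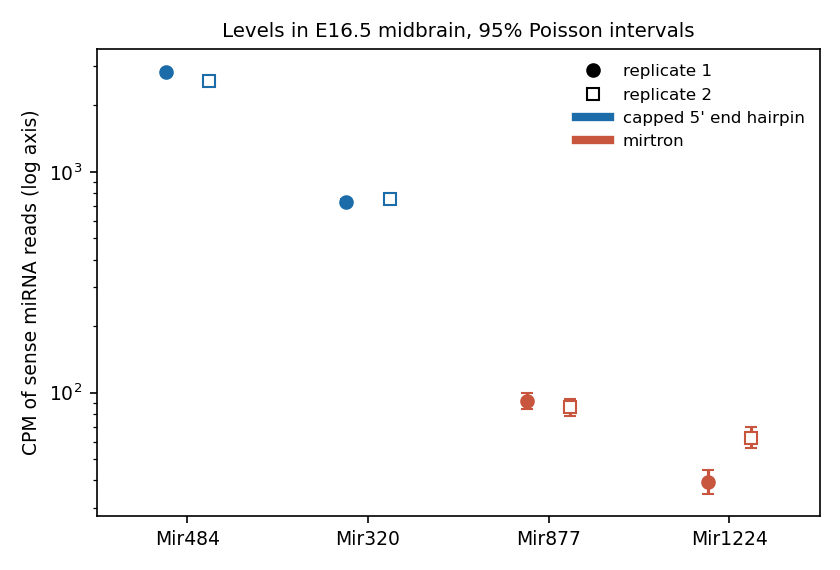
Level of each gene in CPM on a log axis, with filled circles for replicate 1, open squares for replicate 2 and bars for 95% exact Poisson intervals. Mir484 and Mir320 (blue) lie above Mir877 and Mir1224 (red), and the libraries lie farthest apart on this scale for Mir1224, at 39.3 and 62.5 CPM.

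Over both libraries the means were 2712 ± 174 CPM for Mir484, 743 ± 19.1 for Mir320, 88.4 ± 3.93 for Mir877 and 50.9 ± 16.4 for Mir1224 (SD, n = 2 each). The gap between neighbours in this order exceeded the larger of their SDs each time. It was 1969 CPM between Mir484 and Mir320, 654 CPM between Mir320 and Mir877 and 37.5 CPM between Mir877 and Mir1224. No test was made between genes. An exact permutation test of 2 values against 2 has a smallest two-sided p of 0.333, and it would ignore that the genes share libraries.

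Ratios within a library put the same order on a scale free of library size, but still compare reads and not molecules. Mir484 had 3.89 times the reads of Mir320 in replicate 1 (95% exact interval 3.76 to 4.02) and 3.42 times in replicate 2 (3.30 to 3.55). Mir320 had 7.996 times the reads of Mir877 (7.32 to 8.75) and 8.83 times (8.01 to 9.75). Mir877 had 2.32 times the reads of Mir1224 in replicate 1 (1.99 to 2.71) but 1.37 times in replicate 2 (1.19 to 1.58), intervals that do not overlap. Per base of hairpin the order could not change, since Mir484 has the shortest hairpin, 67 bases, and the others have 82 or 85. The level of Mir484 per base was 4.76 and 4.19 times that of Mir320 in replicates 1 and 2.

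Together the 4 genes held 22725 reads in replicate 1 and 18559 in replicate 2. That is 0.369% (95% Wilson interval 0.365 to 0.374) and 0.349% (0.344 to 0.354) of the counted miRNA reads. The capped hairpins made up 96.5% and 95.8% of these reads, and the mirtrons 3.53% and 4.24%. Almost all reads of the group therefore came from Mir484 and Mir320, in both pools.

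Among the 411 genes with 10 or more reads in both libraries the capped hairpins stood above the median of 108 CPM and the mirtrons below it. Mir484 ranked 66 by mean level, at percentile 83.9, and Mir320 ranked 108, at percentile 73.7. Mir877 ranked 219, at percentile 46.7, and Mir1224 ranked 248, at percentile 39.7. Ranks in replicates 1 and 2 were 65 and 68 for Mir484, 110 and 105 for Mir320, 217 and 219 for Mir877, and 264 and 239 for Mir1224. Mir1224 moved by the most places. The percentile depends on which genes count as detected. Over all 1973 listed genes, most of which had 0 reads, the 4 stood between 87.4 for Mir1224 and 96.7 for Mir484.

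**Figure D2:**
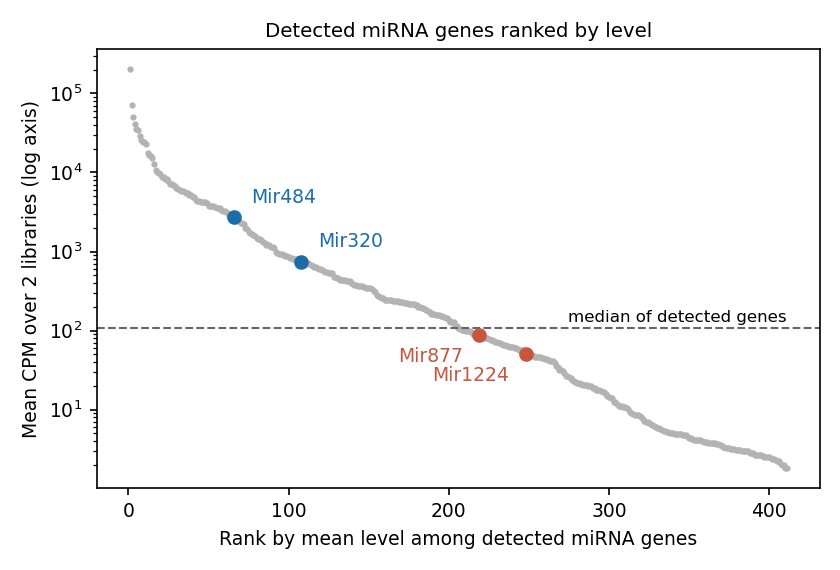
Mean CPM over 2 libraries, on a log axis, of the 411 detected genes against their rank (grey points), with the 4 genes in colour and the median of 108 CPM as a dashed line. Mir484 and Mir320 (blue) lie above the line at ranks 66 and 108, and Mir877 and Mir1224 (red) lie below it at ranks 219 and 248.

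The genes nearest in level, by the difference of mean log2(CPM + 1) over the 2 libraries, give a sense of scale. For Mir484 they were Mir125b-2 and Mir379 above it and Mir301 and Mir128-1 below it, differing by up to 0.15. For Mir320 they were Mir7-1 and Mir101a above and Mir3071 and Mir3099 below, differing by up to 0.07. For Mir877 they were Mir150 and Mir679 above and Mir539 and Mir129-1 below, differing by up to 0.11. For Mir1224 they were Mir7j and Mir19a above and Mir5099 and Gm23450 below, differing by up to 0.04. Mir128-1, known as a neuronal miRNA, thus stood near Mir484, with 2182 CPM in the first library and 2729 CPM in the second. With 2 libraries of 1 group such closeness is one of level alone. Reads that mapped to several places are in no gene's count, so a gene's level need not be that of its mature miRNA.

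Between the libraries Mir484 was higher in replicate 1 and Mir1224 higher in replicate 2, while Mir320 and Mir877 did not pass the test. The test was a two-sided exact binomial test of each gene's reads against the library totals, with Benjamini-Hochberg adjustment over the 411 detected genes, and it compares 2 libraries and not conditions. It called 47.4% of the detected genes, so 2 of 4 called is near that background. The log2 ratio of replicate 1 over replicate 2 was 0.13 for Mir484 (95% exact interval 0.098 to 0.16, adjusted p = 9.05e-15). Mir1224 had a log2 ratio of -0.67 (-0.91 to -0.42, adjusted p = 1.45e-07), 1.59-fold higher in replicate 2.

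Mir320 had a log2 ratio of -0.05 (-0.11 to 0.0093, adjusted p = 0.165) and Mir877 one of 0.09 (-0.090 to 0.27, adjusted p = 0.475). The call on Mir320 turned on the scaling. With TMM factors its log2 ratio was -0.10 and its adjusted p in the same exact binomial test 0.00368. An exact test in edgeR with the biological coefficient of variation set to 0.2, a value that leaves room for spread between pools, called 0 of the 4, against 1.46% of the detected genes. At an unadjusted p under 0.05 it took 0 of the 4 and 8 of the 411. With that coefficient set to 0.1, 0 of the 4 passed, against 2.19% of the detected genes, and 1 of the 4, Mir1224, had an unadjusted p under 0.05, as did 40 of the 411.

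**Figure D3:**
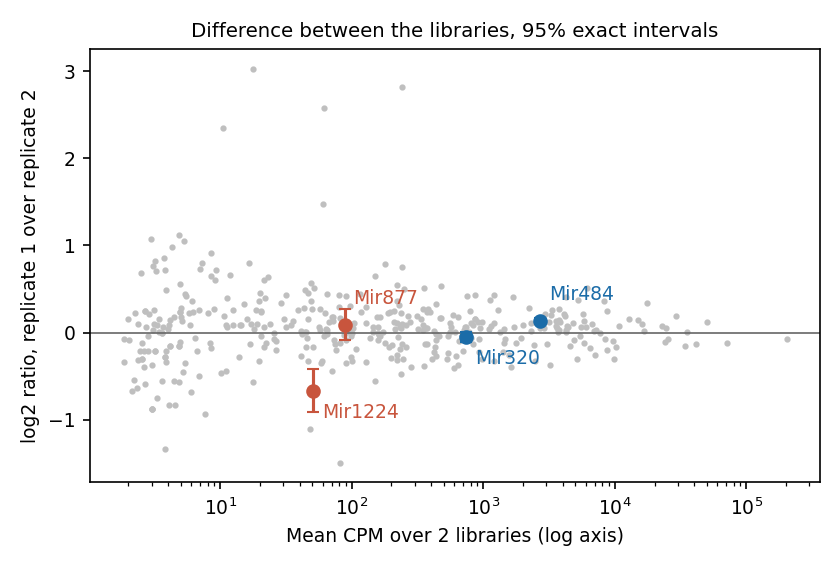
log2 ratio of replicate 1 over replicate 2 against mean CPM (log axis) for the 411 detected genes in grey and the 4 genes in colour, with 95% exact intervals. Mir1224 lies farthest from 0, at -0.67, while the other 3 lie between -0.05 and 0.13. The interval of Mir484, 0.098 to 0.16, also leaves out 0.

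Few genes as abundant as Mir1224 had a ratio as far from 0. Of 66 detected genes within 2-fold of its mean level, 4 had a larger ratio in either direction, and the median size among the 66 was 0.17. For Mir484, 20 of 46 genes within 2-fold of its level had a larger one, for Mir320 49 of 62, and for Mir877 47 of 71. This comparison was chosen with the values known and is a description. The fixed cell markers differed between the pools to unlike degrees. In replicates 1 and 2 the 8 neural markers summed to 64248 and 62886 CPM, a sum that hides opposite directions. By CPM Mir135b, Mir137, Mir153 and Mir124a-1 were higher in replicate 1. Mir149, Mir128-1, Mir128-2 and Mir9-3 were higher in replicate 2. Endothelial Mir126a had 23067 and 24810 CPM, and the 3 muscle markers summed to 35.9 and 33.1 CPM. The 3 epithelial markers summed to 542 CPM in replicate 1 and 80.4 CPM in replicate 2, and the liver marker Mir122 had 74.9 and 55.3 CPM. The erythroid markers went opposite ways, with 122 and 180 CPM for Mir451a and 74.3 and 65.7 CPM for Mir144. The exact binomial test called Mir451a (adjusted p = 5.87e-15) and not Mir144 (adjusted p = 0.151). The part of these markers in the ratio of Mir1224 was not tested.

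Other hairpins built like Mir877 and Mir1224 were sought from the annotation alone. In 22 of the 1894 genes with a position the hairpin started and ended within 3 bases of the ends of 1 intron of a gene on the same strand, and in all 22 the ends matched exactly. Of these, 8 had 10 or more reads in both libraries (36.4%), 8 had fewer in at least 1 library and 6 had 0 reads in both. Without Mir877 and Mir1224, 6 of 20 were detected. Of 706 other genes lying inside an intron 26.8% were detected, and of all 1894 genes 21.7%.

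Mir877 was the most abundant of the 22 and Mir1224 the fourth. They held 39.4% and 41.6% of the reads of this set in replicates 1 and 2. Next to them stood Mir6944 in Dbn1, the gene of the actin-binding protein drebrin, with 75.1 and 68.3 CPM in replicates 1 and 2. Mir1981 in Marc2 had 57.9 and 56.7 CPM, Mir3102 in Arhgef17 had 41.5 and 51.95 CPM, and Mir3547 in Baiap3 had 11.4 and 10.9 CPM. Mir6944 and Mir1981 lay between Mir877 and Mir1224 by mean level. In replicate 2 Mir1224 was above Mir1981, and in replicate 1 it was below both Mir1981 and Mir3102.

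The detected genes of this set reached at most 88.4 CPM, with a median of 48.8 CPM, against 97.9 CPM over detected genes elsewhere in introns and 108 CPM over all detected genes. The 22 together held 0.0331% and 0.0356% of the counted miRNA reads in replicates 1 and 2, whereas the 706 others inside introns held 62.1% and 62.4%. By the exact binomial test 2 of the 8 detected genes were called, against 47.4% of all detected genes. These were Mir1224 and Mir3102 (log2 ratio -0.33, adjusted p = 0.0228), both higher in replicate 2. Of all 411 detected genes this test called 75 higher in replicate 2 and 120 higher in replicate 1. In edgeR's exact test 0 of the 8 passed with the coefficient of variation at 0.2 or at 0.1, and the adjusted p of Mir3102 was 1 and 0.788.

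**Figure D4:**
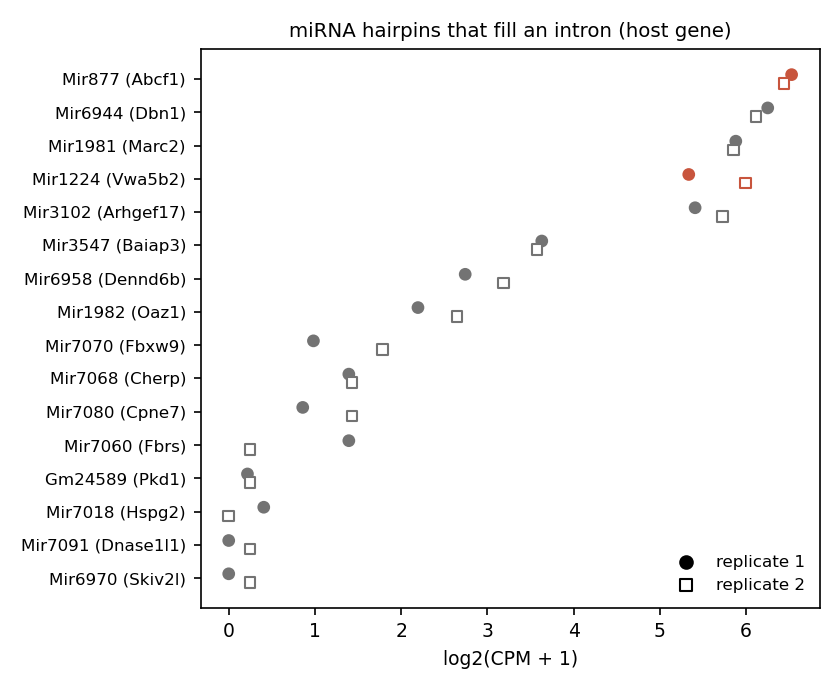
log2(CPM + 1) of the 16 genes with at least 1 read whose hairpin fills an intron, host gene in brackets, with filled circles for replicate 1 and open squares for replicate 2. Mir877 is at the top and Mir1224 (both red) in the fourth place, where the libraries lie apart.

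Sequences were held for 16 of the 22 hairpins, and 15 of them began with GU and ended with AG. These ends follow from the choice of hairpins that fill an intron, and the exception was Mir7088, which began with GC. The median G and C content of the 16 was 60.2%, near the 61.2% of Mir877 and the 60.0% of Mir1224, while the other hairpins had a median of 52.2%. Mir877 and Mir1224 had 19 pyrimidines in the 20 bases before the acceptor dinucleotide, and the median of the 16 was 16.

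Of 7 genes on a separate list of miRNAs made without a usual step, 5 were analysed here. All 5 had 10 or more reads in both libraries, where 20.8% of the 1973 genes did. The list too was chosen with earlier results of these data known. Mir1981, Mir1982 and Mir3102 on this list are also among the 22 hairpins that fill an intron. Mir1839 and Mir664 were not analysed here. Mir451a, whose hairpin is cut by Drosha but by Argonaute 2 in place of Dicer, stood highest with 122 and 180 CPM in replicates 1 and 2, above both mirtrons and below both capped hairpins. Mir702 in Plod3 had 87.1 and 71.2 CPM, close to Mir877, and its hairpin missed the intron ends by up to 9 bases, so it fell outside the 22. Mir1982 in Oaz1 was lowest at 3.58 and 5.27 CPM. Mir1981 and Mir3102 are given above.

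No read fell on the strand opposite Mir320, Mir484, Mir877 or Mir1224 in either library. The same held for all 22 hairpins that fill an intron and for the 5 genes of the separate list, so it is not particular to the 4. A count of 0 allows up to 0.488 CPM in replicate 1 and 0.565 CPM in replicate 2, taken as 3 reads. For Mir484 this covers the stretch where the exon of Marf1 lies on the other strand. Inserts were below 30 nt, so longer RNA of Marf1 was not measured.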

How the data were processed

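MicroRNA-seq libraries with inserts below 30 nt were made from total RNA of pooled midbrains, 2 libraries of 1 group. The deposited tables hold raw read counts per miRNA gene on assembly mm10 with GENCODE M4, for either strand, the strand of the gene and the opposite strand, per the description deposited with them. The aligner, the counting program and adapter trimming are not given in the sources used here. Rows that name no gene were left out of library sizes: multi-mapped reads were 35.3% and 36.5% and unmapped reads 15.6% and 15.2% of all reads.

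Identifiers without version were matched to GENCODE M21, on the same assembly (1894 matched, 79 did not). CPM are sense counts over their sum. A gene was called detected where each library held 10 reads or more of it. Log2 ratios are replicate 1 over replicate 2 with 0.5 reads added. The exact binomial test (scipy 1.17.1) covered all detected genes and was tried on simulated data. Those data held counting error and no spread between pools, so they cannot show how the test behaves with such spread. The binomial test stands in for a quasi-likelihood fit, which has no residual degrees of freedom here. Alternatives used edgeR 4.0.16, DESeq2 1.42.0 size factors and R 4.3.3. Python 3.11.15, numpy 2.4.6, pandas 2.3.3 and matplotlib 3.10.9 served for the rest, and RNAfold 2.7.2 for folding energies.

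Genes named besides the 4 were, by rule, the 2 nearest in level on each side, the 4 most abundant other detected hairpins that fill an intron, a list of 7, seed sharers and host or neighbouring genes, plus marker genes. Mir7088 and the mention of Mir128-1 values were chosen after their values were seen. The genes and lists were chosen with earlier results of these data known.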

Additional observations from a re-analysis of the deposited data

How the results depend on the processing

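No paired analysis was possible because there is 1 group. Mean levels moved by less than 1 SD with TMM, RLE size factors and counts of either strand. These settings could hardly move a mean, so they do not test how firm the levels are. TMM factors were 1.017 for replicate 1 and 0.983 for replicate 2, and RLE size factors also shifted the libraries in opposite directions. Such shifts nearly cancel in a mean over both libraries. Counts of either strand changed only the denominator, since no read fell opposite these genes. With all reads as the denominator the levels were 1211 CPM for Mir484, 331 CPM for Mir320, 39.5 CPM for Mir877 and 22.7 CPM for Mir1224. Without 1 library, levels ran from 2589 to 2835 CPM for Mir484, 729 to 756 for Mir320, 85.6 to 91.2 for Mir877 and 39.3 to 62.5 for Mir1224.

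Percentiles followed the filter by construction, since it sets how many low genes are ranked. With 1 or more reads, 50 or more reads and no filter they were 89.2, 78.6 and 96.7 for Mir484, 82.4, 65.0 and 94.5 for Mir320, 64.3, 29.1 and 88.9 for Mir877, and 59.6, 19.7 and 87.4 for Mir1224. Without 1 library they ran from 84.0 to 85.4 for Mir484, 75.2 to 75.3 for Mir320, 48.6 to 51.1 for Mir877 and 40.5 to 43.9 for Mir1224.

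No log2 ratio changed sign under any of the 9 alternatives. Mir320 passed with TMM (-0.10, adjusted p = 0.00368) and with RLE size factors (-0.10, adjusted p = 0.00368) in the exact binomial test, where its adjusted p otherwise ran up to 0.222. In edgeR's exact test Mir484 no longer passed at a coefficient of variation of 0.2 (0.13, adjusted p = 1) or 0.1 (0.13, adjusted p = 1), nor did Mir1224 (-0.67, adjusted p = 1, and -0.67, adjusted p = 0.194). The number of detected hairpins that fill an intron was 13 of 22 with 1 or more reads, 6 of 22 with 50 or more, 11 of 29 with ends within 10 bases and 9 to 10 of 22 without 1 library, against 8 of 22 as reported.

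With 242 to 561 reads, the mirtrons carry wider counting intervals than the capped hairpins, and n = 2 limits every SD.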
